A study of Mus musculus with 16 samples.

Results

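The core genes of the circadian clock, 10 in all, were followed through the livers of 1- and 6-month-old mice given the DNA-damaging agent DEN. They were picked by symbol as Arntl, Clock, Npas2, Cry1, Cry2, Per1, Per2, Per3, Nr1d1 and Nr1d2, and are 10 of 47719 genes with counts. All 10 were found in the table, and all 10 are among the 15684 genes with enough counts to test. RNA was sequenced from whole liver of wild-type C57BL/6 male mice, in 16 libraries that each pooled equal amounts of RNA from 3 mice. Mice of both ages were left untreated (2 control libraries per age) or were taken 2 or 6 days after an intraperitoneal injection of diethylnitrosamine (DEN) at 25 mg/kg (3 libraries per day and age). The younger mice are given as 1 month old in the treatment protocol and as 3 to 4 weeks old in the sample labels. Neither the labels nor the methods state the time of day at which tissue was taken, and no untreated mice stand beside days 2 and 6 as controls of those days. A replicate is a pool, so p-values measure the spread between pools. In bulk liver, fewer cells of a type and less RNA per cell cannot be told apart.

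The clock of a liver cell is a loop of transcription factors that repress their own genes over the day. ARNTL (also called BMAL1) pairs with CLOCK or with its close relative NPAS2, and the pair binds short DNA motifs called E-boxes and turns on the Per, Cry and Nr1d genes. The PER and CRY proteins then return to the nucleus and block the ARNTL pair. NR1D1 and NR1D2 (REV-ERB alpha and beta) are nuclear receptors that repress Arntl through receptor sites and not through E-boxes, so they form a second arm of the loop beside the PER and CRY proteins. In a liver kept on a light and feeding cycle, Arntl, Npas2 and Clock RNA peak at one side of the day, and Per, Nr1d and Dbp RNA at the other.

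Motifs of the loop were sought in the RefSeq promoter windows of GRCm38.p6, which reach from 250 bases before to 50 bases after a gene's start. Of the 10 genes, 9 had a window. Both strands were searched for the E-box CACGTG, its variant CACGTT, the receptor half-site AGGTCA and the D-box TTANGTAA, which is bound by DBP and NFIL3. Stretches of 7 genes with a match are shown, while the half-site match in the window of Clock is not printed. Each is read 5′ to 3′ on the gene's strand, with matches in capitals, so CACGTT appears as AACGTG and AGGTCA as TGACCT where the match is on the opposite strand.
Cry1, E-box and its variant, chr10:85185097-85185144, minus strand: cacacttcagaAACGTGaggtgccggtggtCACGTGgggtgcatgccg
Per1, E-box and half-site, chr11:69098771-69098828, plus strand: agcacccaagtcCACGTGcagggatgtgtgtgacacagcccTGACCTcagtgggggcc
Nr1d1, E-box variant, chr11:98775384-98775419, minus strand: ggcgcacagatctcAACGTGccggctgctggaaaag
Cry2, E-box variant, chr2:92434212-92434247, minus strand: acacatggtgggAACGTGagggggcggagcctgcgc
Per3, 2 D-boxes, chr4:151044806-151044880, minus strand: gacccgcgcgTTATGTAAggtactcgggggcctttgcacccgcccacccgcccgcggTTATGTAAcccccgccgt
Arntl, half-site after the start, chr7:113207531-113207560, plus strand: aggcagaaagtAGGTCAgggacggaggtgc
Nr1d2, half-site, chr14:18239163-18239198, minus strand: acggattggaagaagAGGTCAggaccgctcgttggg

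The E-box was found in the windows of 2 of the 9 genes (Cry1 and Per1), beside 8.09% of 27025 genes with a window. Its variant was found in 3 (Cry1, Cry2 and Nr1d1), beside 5.44% of genes. The receptor half-site was found in 4 (Arntl, Clock, Per1 and Nr1d2), beside 18.1% of genes, and the D-box in Per3, beside 2.72% of genes. In Cry1 the E-box began 60 bases before the start and its variant 79 bases before it. These are matches of letters in a short window and not measured binding sites.

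Levels are given as CPM, that is counts scaled to the TMM-corrected library size, and comparisons between genes as RPKM, which also divides by the exon length of the gene. Total counts were 19039330 to 34459774 per library. Of 7 hepatocyte markers, 6 were detected, with a summed level of 18827 to 34438 CPM, while Alb was listed at 0 in every library. In 3 libraries of 1-month-old mice (control 2, day 2 replicate 3 and day 6 replicate 2), genes of the mitochondrial genome took 2.18% to 3.52% of counts, against 3.82% to 5.28% in the other 13. The same 3 libraries had summed hepatocyte markers of 31023 to 34438 CPM against 18827 to 30319 CPM elsewhere, and TMM factors of 0.906 to 0.926 against 0.971 to 1.10. Summed markers of cholangiocytes, macrophages, stellate cells, endothelium, lymphocytes and neutrophils overlapped between these 3 libraries and the other 13. As the levels show, these 3 are also the libraries with the most Arntl, so results are given with and without them.

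Per length, the Nr1d genes were the most abundant members, and Arntl and Npas2 the least. Nr1d2 had a mean of 22.7 ± 9.21 RPKM (SD over the 16 libraries) and Nr1d1 of 21.4 ± 10.03 RPKM, and Nr1d2 was above Nr1d1 in 8 of 16 libraries. Nr1d1 was above Per1, the next gene, in 15 of 16 libraries. Per1, Cry2 and Per2 lay close together at means of 6.60, 5.97 and 5.93 RPKM, and Clock and Cry1 followed at 4.01 and 3.88 RPKM. Within this middle range each gene was above the next in only 8 to 10 of 16 libraries, so their order is not settled beyond the spread. Per3 had a mean of 3.33 RPKM, Arntl of 1.68 RPKM and Npas2 of 0.581 RPKM. Per3 was above Arntl in 10 of 16 libraries, and Arntl above Npas2 in 16 of 16.

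Arntl (ENSMUSG00000055116, chromosome 7 of GRCm38 from 113207465 to 113314122, plus strand), the activator without which the loop stops, was far apart between replicate pools of the same group. At 1 month its level was 0.805 and 31.0 CPM in the controls, 1.15, 0.839 and 35.2 CPM at day 2 and 4.61, 37.8 and 10.7 CPM at day 6. At 6 months it was 10.4 and 10.9 CPM in the controls, 1.22, 4.93 and 22.4 CPM at day 2 and 1.15, 12.9 and 16.2 CPM at day 6. The highest and lowest pools stood at least 8.20-fold apart in each treated group and 38.5-fold apart in the 1-month controls, while the 6-month controls lay within 1.05-fold of each other. The highest library stood 46.9-fold above the lowest, and both came from 1-month-old mice.

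Npas2 (ENSMUSG00000026077, chromosome 1 from 39193731 to 39363236, plus strand), the alternative partner of ARNTL, ran with Arntl. At 1 month it was measured at 0.115 and 7.65 CPM in the controls, at 0, 0.109 and 11.8 CPM at day 2 and at 0.0480, 10.8 and 3.11 CPM at day 6. At 6 months its level was 1.21 and 1.48 CPM in the controls, 0.125, 0.418 and 2.79 CPM at day 2 and 0.153, 3.23 and 1.62 CPM at day 6. The lowest values rest on few reads: the counts were 3 in the lower 1-month control, 0 and 3 in the lower day 2 libraries and 1 in the lowest day 6 library. Against the floor of 3 counts in the library that had 0, the highest library was at least 85.2-fold higher.

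Clock (ENSMUSG00000029238, chromosome 5 from 76209868 to 76304792, minus strand), the usual partner of ARNTL, was high in most of the pools with much Arntl, over a smaller range. The order of the pools differed at day 6 at 1 month and in the 6-month controls. At 1 month it was 28.5 and 74.2 CPM in the controls, 26.0, 23.9 and 72.5 CPM at day 2 and 45.3, 69.5 and 31.3 CPM at day 6. At 6 months it was 72.4 and 70.4 CPM in the controls, 43.5, 51.4 and 94.8 CPM at day 2 and 32.2, 63.9 and 81.9 CPM at day 6. The highest library was 3.96-fold above the lowest, and the groups overlapped at both ages.

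The Per genes, whose proteins carry the repressor complex into the nucleus, were mostly high where Arntl was low. Per1 (ENSMUSG00000020893, chromosome 11 from 69095217 to 69109960, plus strand) was 55.5 and 27.9 CPM in the 1-month controls, 76.1, 46.7 and 18.4 CPM at day 2 and 62.4, 12.6 and 43.1 CPM at day 6. At 6 months Per1 was 27.8 and 25.1 CPM in the controls, 52.6, 29.8 and 20.6 CPM at day 2 and 53.1, 19.3 and 23.8 CPM at day 6. Its highest library was 6.05-fold above its lowest.

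Per2 (ENSMUSG00000055866, chromosome 1 from 91415982 to 91459324, minus strand) was 48.8 and 12.3 CPM in the 1-month controls, 52.9, 37.2 and 11.8 CPM at day 2 and 86.0, 10.4 and 40.03 CPM at day 6. At 6 months Per2 was 19.4 and 20.6 CPM in the controls, 54.5, 37.6 and 24.1 CPM at day 2 and 61.9, 18.4 and 19.4 CPM at day 6. Both the highest and the lowest of all 16 values, 8.29-fold apart, were replicates of day 6 at 1 month.

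Per3 (ENSMUSG00000028957, chromosome 4 from 151003652 to 151044665, minus strand) covered the widest range of the Per genes. At 1 month it was 59.0 and 4.76 CPM in the controls, 88.0, 39.0 and 2.66 CPM at day 2 and 42.5, 2.48 and 36.8 CPM at day 6. At 6 months it was 11.9 and 23.8 CPM in the controls, 49.8, 47.4 and 9.36 CPM at day 2 and 61.7, 20.7 and 11.3 CPM at day 6. The 3 libraries of 1-month-old mice with the most Arntl were the only ones under 5 CPM of Per3, and the highest library stood 35.5-fold above the lowest. The annotation places Per3 wholly within the interval of Camta1 on the same strand, which held 1458 counts in all libraries against 13152 for Per3.

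**Figure D1:**
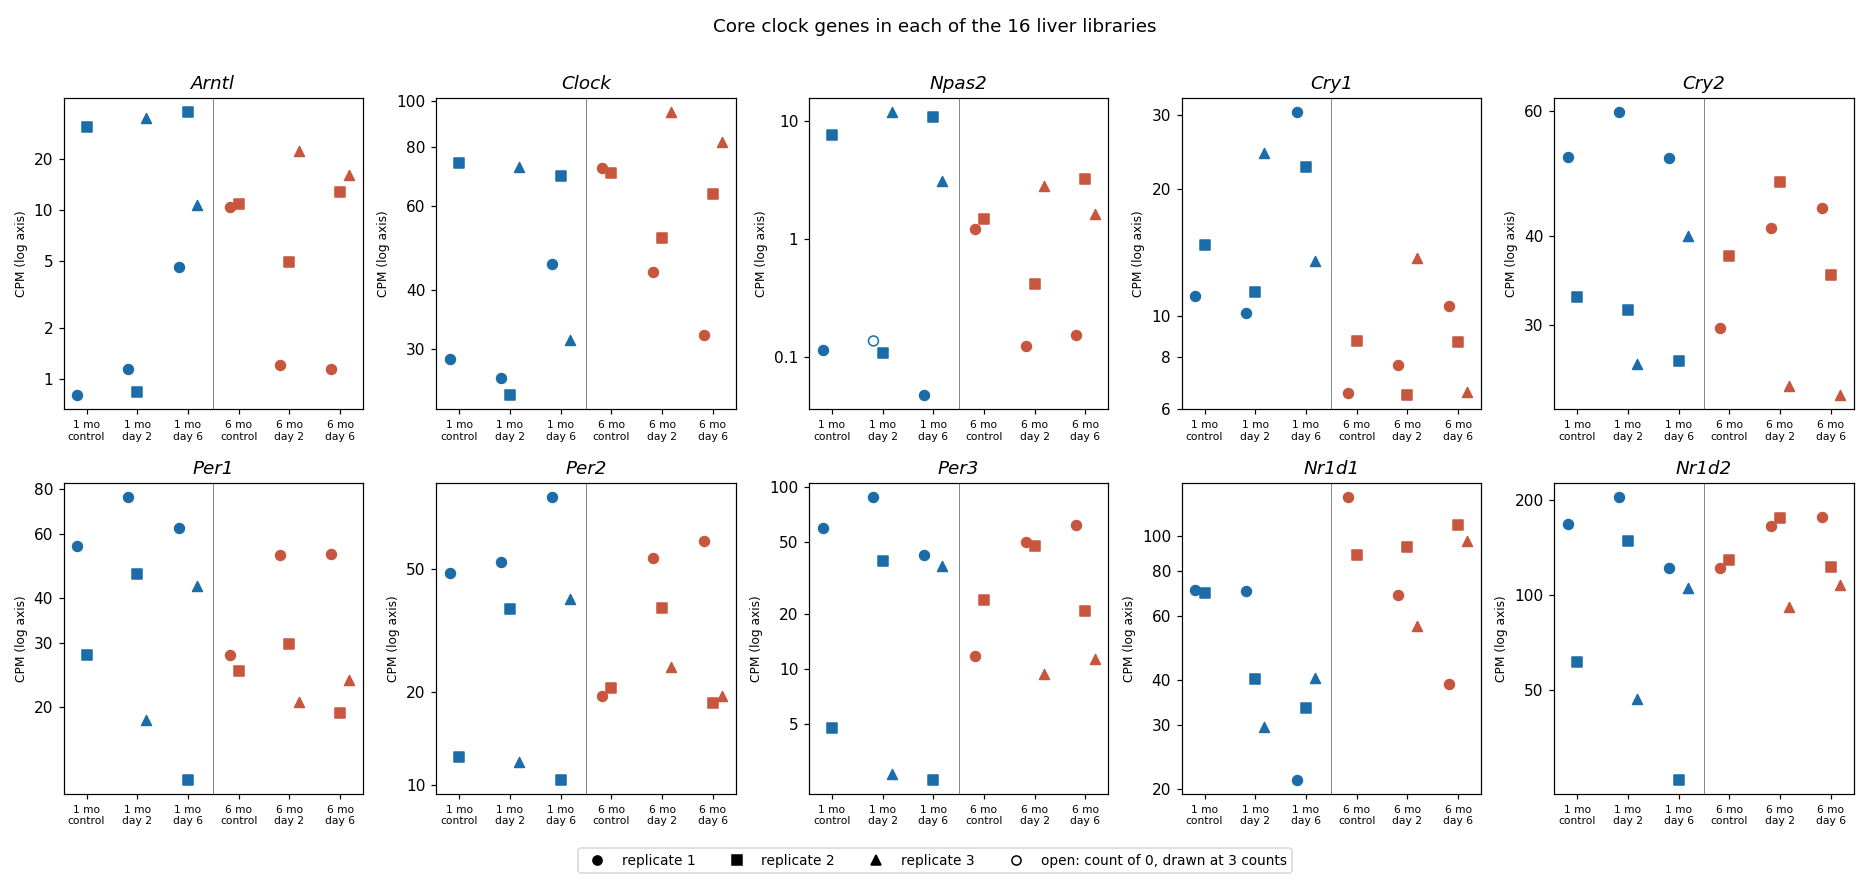
Level of each of the 10 clock genes in each library, in CPM on a log axis, by age and group; blue points are 1-month-old and red points 6-month-old mice, and the shape marks the replicate number. Arntl, Npas2 and Clock were mostly high in the pools in which Per1, Per2, Per3 and Nr1d2 were low, while the 2 pools of 6-month controls lay close together, at 10.4 and 10.9 CPM for Arntl.

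The cryptochrome genes Cry1 and Cry2, whose proteins repress the ARNTL pair, did not run together. Cry2 (ENSMUSG00000068742, chromosome 2 from 92403646 to 92434043, minus strand) was 51.7 and 32.8 CPM in the 1-month controls, 59.8, 31.5 and 26.4 CPM at day 2 and 51.5, 26.7 and 40.1 CPM at day 6. At 6 months Cry2 was 29.7 and 37.5 CPM in the controls, 41.1, 47.7 and 24.6 CPM at day 2 and 43.8, 35.3 and 23.9 CPM at day 6. With 2.50-fold between its extremes it had the smallest range of the 10 genes, and it was low where Arntl was high. An antisense transcript, D930015M05Rik, overlaps Cry2 and held 491 counts in all libraries against 15764 for Cry2, and whether the counting used strand is not stated by the labels or methods.

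Cry1 (ENSMUSG00000020038, chromosome 10 from 85131702 to 85185054, minus strand) was 11.2 and 14.7 CPM in the 1-month controls, 10.2, 11.4 and 24.3 CPM at day 2 and 30.4, 22.6 and 13.5 CPM at day 6. At 6 months Cry1 was 6.54 and 8.73 CPM in the controls, 7.64, 6.47 and 13.7 CPM at day 2 and 10.6, 8.68 and 6.60 CPM at day 6. The levels at 6 months lay mostly under those at 1 month, and the pool highest in Cry1 (day 6 replicate 1 at 1 month) was also the highest in Per2.

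The receptor genes Nr1d1 and Nr1d2 parted in the same way. Nr1d2 (ENSMUSG00000021775, chromosome 14 from 18204054 to 18239127, minus strand) was 168 and 61.0 CPM in the 1-month controls, 204 CPM, 148 CPM and 46.5 CPM at day 2 and 122 CPM, 25.9 CPM and 105 CPM at day 6. At 6 months Nr1d2 was 121 and 129 CPM in the controls, 165, 175 and 91.6 CPM at day 2 and 176, 122 and 107 CPM at day 6. It varied 7.88-fold over the 8 libraries at 1 month and 1.92-fold over the 8 at 6 months, and its low pools at 1 month were again those with the most Arntl.

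Nr1d1 (ENSMUSG00000020889, chromosome 11 from 98767932 to 98775333, minus strand) was 71.0 and 69.5 CPM in the 1-month controls, 70.3, 40.3 and 29.6 CPM at day 2 and 21.3, 33.4 and 40.5 CPM at day 6. At 6 months Nr1d1 was 128 and 88.5 CPM in the controls, 68.4, 93.1 and 56.3 CPM at day 2 and 39.1, 107 and 96.9 CPM at day 6. The 1-month controls, which differed 38.5-fold in Arntl, differed 1.02-fold in Nr1d1. The last 1075 bases of Nr1d1 overlap Thra, a thyroid hormone receptor gene on the opposite strand, which was measured at 6.86 to 15.8 CPM and was lowest in the library where Nr1d1 was lowest.

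**Figure D2:**
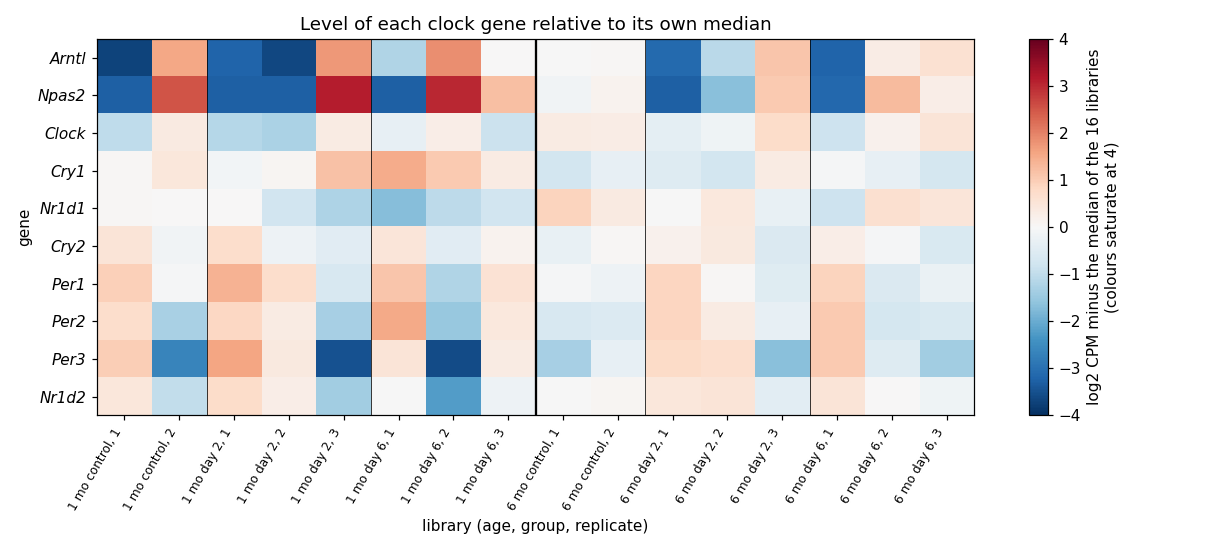
Log2 CPM of each gene minus its own median over the 16 libraries, with red above and blue below the median and colours saturating at 4 log2 units; thin lines divide groups and the thick line divides the ages. Arntl and Npas2 are reddest in the 3 libraries of 1-month-old mice in which Per3 is bluest. In most libraries Per1, Per2, Per3 and Nr1d2 show the opposite colour to Arntl. Exceptions include the Per genes in day 6 replicate 3 at 1 month and all of these genes in control 1 at 6 months. In both libraries Arntl is close to its median, at 10.7 and 10.4 CPM against 10.5 CPM.

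The spread between pools of the same group was then set beside that of all genes tested. The pooled SD of log2 CPM within groups was 2.87 for Npas2, 2.28 for Arntl and 1.95 for Per3, which ranked 8th, 17th and 25th of the 15684 genes. Per2 followed with 1.09, Per1 with 0.876 and Nr1d2 with 0.861, and these 6 of the 10 genes were among the 5% of genes with the largest spread (an SD of at least 0.745). Clock had 0.697, Nr1d1 0.542, Cry1 0.515 and Cry2 0.488. The median over the 10 genes was 0.868, beside 0.271 over all genes tested. Without the 3 libraries of lowest mitochondrial share, 3 of the 10 genes were among that 5%.

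The pools of 1-month-old mice differed more than those of 6-month-old mice in 9 of the 10 genes, Nr1d1 being the exception, beside 71.3% of all genes tested. The SD within groups of Nr1d2 was 1.15 at 1 month and 0.402 at 6 months, that of Per3 2.48 and 1.21, and that of Arntl 2.64 and 1.84. Each 1-month group holds 1 of the 3 libraries of lowest mitochondrial share. The larger spread of Nr1d2, Per3 and Arntl at 1 month rests mostly on those libraries. Without them, the 1-month pools held 1.15 and 0.839 CPM of Arntl at day 2 and 4.61 and 10.7 CPM at day 6. They held 88.0 and 39.0 CPM of Per3 at day 2 and 42.5 and 36.8 CPM at day 6. For Nr1d2 the values were 204 and 148 CPM, and 122 and 105 CPM. This does not hold for every gene. Without those libraries the day 6 pools still held 30.4 and 13.5 CPM of Cry1, and 0.0480 and 3.11 CPM of Npas2. SDs by age without those libraries are not given, and the difference in spread was not tested. In the 6-month controls the higher pool stood a median of 1.16-fold above the lower over the 10 genes, with Per3 the farthest apart at 2.01-fold. In the 1-month controls the median was 2.68-fold.

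To ask which genes moved together, each library was centred on the mean log2 CPM of its group, and Pearson's r was computed for all 45 pairs of the 10 genes over the 16 libraries. P-values came from the two-sided exact permutation of libraries within groups and were adjusted over the 45 pairs by Benjamini-Hochberg, with a threshold of 0.05. Of the 45 pairs, 29 passed, 13 of them positive and 16 negative. Spearman's rho gave 29 pairs too. The genes were chosen when it was already known that clock genes differed between pools, so the count describes these genes and is no independent evidence of it.

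Among the 8 genes other than Cry1 and Nr1d1, all 28 pairs passed and fell into 2 blocks of opposite sign. Arntl rose and fell with Clock (r = 0.944, rho = 0.965, exact permutation p = 0.00347, adjusted p = 0.00822) and with Npas2 (r = 0.933, rho = 0.882, exact permutation p = 0.00135, adjusted p = 0.00579). In the other block, Per3 and Nr1d2 were the most alike pair of all (r = 0.982, rho = 0.985, exact permutation p = 0.000386, adjusted p = 0.00372), and Per1 and Per2 followed (r = 0.970, rho = 0.962, with the same exact permutation p). Cry2 belonged to this block, at r = 0.884 with Per3 and 0.842 with Nr1d2.

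Across the blocks, the activator genes ran against the repressor genes. Arntl had an r of -0.908 with Per3 (rho = -0.903, exact permutation p = 0.00289, adjusted p = 0.00766). Its r was -0.907 with Per2, -0.878 with Per1, -0.861 with Nr1d2 and -0.753 with Cry2. The most negative pair was Npas2 and Per2 (r = -0.945, rho = -0.944, exact permutation p = 0.000386, adjusted p = 0.00372). In 5 of the 6 groups the pool highest in Arntl was the pool lowest in Per3.

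All 29 pairs kept their sign in each age alone, with an absolute r of 0.691 to 0.992 at 1 month and 0.597 to 0.976 at 6 months. They also kept it without the 2 libraries farthest from the median of the first gene, at an absolute r of 0.705 to 0.976. Within each age 0 pairs passed the threshold, where the 72 arrangements allow no p below 0.0139. Without the 3 libraries of lowest mitochondrial share, the 29 pairs kept their sign at an absolute r of 0.480 to 0.966, and 0 pairs passed, where the smallest p that 288 arrangements allow is 0.00347. Arntl and Per3 had an r of -0.819 without these libraries, and Per3 and Nr1d2 of 0.966. The median absolute r of the 29 pairs was 0.811 without these libraries and 0.892 over all libraries. The smaller number of arrangements is therefore not the only difference.

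**Figure D3:**
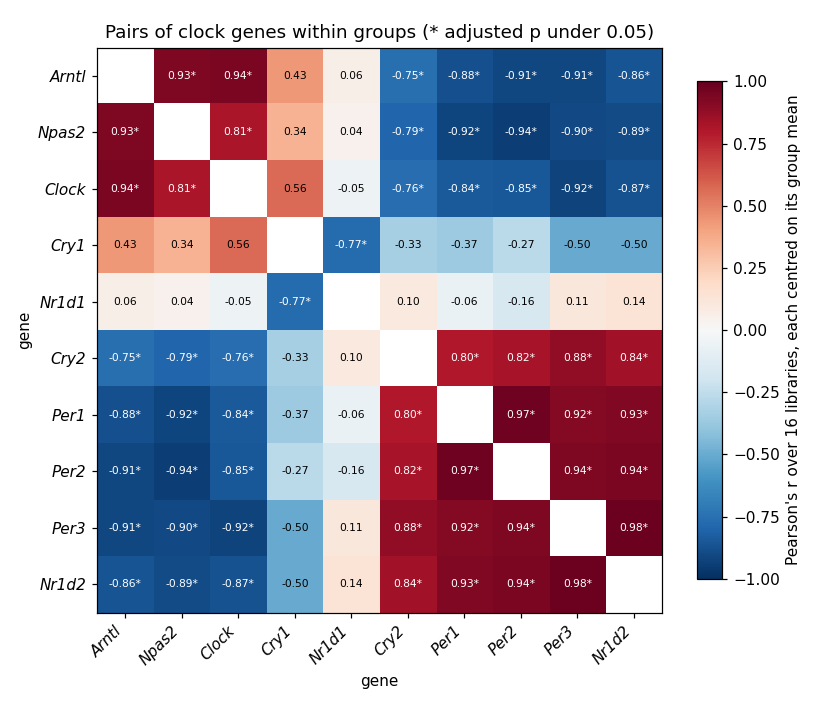
Pearson's r of each pair of the 10 genes over 16 libraries after centring on group means, with red for positive and blue for negative values and a star at an adjusted p under 0.05. Arntl, Npas2 and Clock form one positive block and Cry2, Per1, Per2, Per3 and Nr1d2 another, the blocks oppose each other, and Cry1 and Nr1d1 share a star only with each other.

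Cry1 and Nr1d1 stood outside both blocks and against each other. Nr1d1 had an r of -0.157 to 0.140 with the other 8 genes (adjusted p 0.746 to 0.899), which includes 0.0576 with Arntl and 0.140 with Nr1d2, its closest relative. In 8 of these 8 pairs the sign differed between the ages. Nr1d1 had an r with Arntl of -0.287 at 1 month and 0.488 at 6 months, and with Per2 of 0.142 and -0.669, and the difference between the ages was not tested. Without the 3 libraries of lowest mitochondrial share its r was 0.506 with Arntl and -0.599 with Per2, and -0.599 to 0.506 over the 8 pairs. Cry1 had an r of 0.433 with Arntl (adjusted p = 0.269), of 0.565 with Clock (adjusted p = 0.115) and of -0.330 with Cry2, and none of its 8 pairs with genes of the blocks passed. These misses do not show that the genes are unrelated.

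Cry1 and Nr1d1 themselves had an r of -0.769 (rho = -0.812, exact permutation p = 0.00714, adjusted p = 0.0134). In 6 of 6 groups the pool with the most Cry1 was the pool with the least Nr1d1. The r was -0.858 at 1 month, -0.705 at 6 months, -0.733 without the 2 farthest libraries and -0.749 without the 3 libraries of lowest mitochondrial share. Day 6 replicate 1 at 1 month, for example, had the highest Cry1 of all libraries at 30.4 CPM and the lowest Nr1d1 at 21.3 CPM. Both genes hold the E-box variant in the windows printed above, and Cry1 the E-box as well. Neither motif is particular to this pair, since Cry2 also holds the variant and Per1 the E-box. A link between the motifs and the r was not tested.

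**Figure D4:**
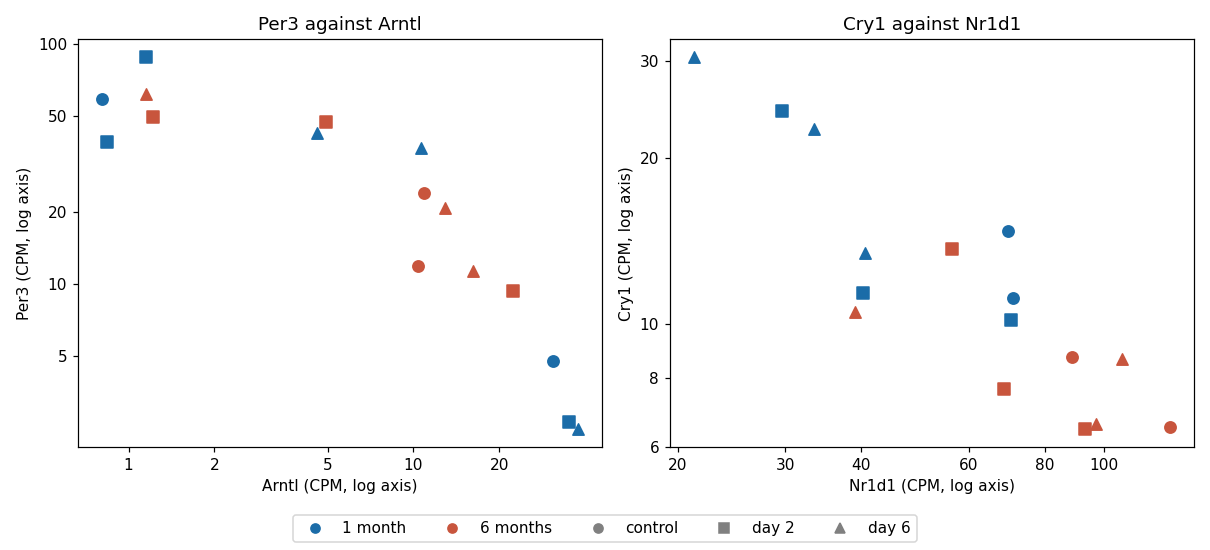
Per3 against Arntl (left) and Cry1 against Nr1d1 (right) in each of the 16 libraries, in CPM on log axes, with colour for age and shape for group. Per3 falls as Arntl rises, from 59.0 CPM at 0.805 CPM of Arntl to 2.48 CPM at 37.8 CPM, and Cry1 falls as Nr1d1 rises, with the 6-month libraries towards the lower right.

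The genes most like Arntl among all genes with a mean of at least 1 CPM were named by the same r over the 16 libraries, as a description with no test. They were Elovl3 (r = 0.987), an elongase of very long fatty acids, Insig2 (0.985), which holds back cholesterol synthesis, Clpx (0.976), a subunit of a mitochondrial protease, the manganese exporter Slc30a10 (0.976) and Rfxank (0.974). Elovl3 ranged from 12.3 to 563 CPM and Insig2 from 63.5 to 525 CPM. Clock ranked 44th and Npas2 74th of 15683 genes by this measure. At the opposite end stood Rnf145 (-0.981), Acot4 (-0.972), D17Wsu92e (-0.969), Slc5a6 (-0.967) and Dclre1a (-0.966), with Per3 ranking 99th and Per2 106th from that end. How far these r rest on the libraries of lowest mitochondrial share was not tested.

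The genes most like Per2 were Ipo5 (r = 0.983), which carries proteins into the nucleus, Nampt (0.980), the rate-limiting enzyme of NAD salvage, the zinc transporter Slc30a9 (0.978), Gys2 (0.977), the glycogen synthase of liver, and Cul4a (0.975). Nampt ranged from 64.0 to 265 CPM and Gys2 from 125 to 452 CPM over the 16 libraries, while Ipo5 stayed between 53.5 and 85.0 CPM.

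Of 24 other clock genes listed, 22 could be tested, and 7 of these were also among the 5% of genes with the largest spread within groups. Dbp, an activator at D-boxes, had an SD of 2.91 log2 units and an r of -0.860 with Arntl. Nfil3, the repressor at the same motif, ran the other way, with an r of 0.966 with Arntl and a range of 9.66 to 69.7 CPM. Ciart, a repressor of the ARNTL pair (SD 2.44, r = -0.898), Usp2, which removes ubiquitin from clock proteins (2.03, r = -0.937), Wee1, a cell cycle kinase under clock control (1.48, r = -0.950), and Tef, a relative of Dbp (1.23, r = -0.911), ran with the Per genes. The kinases Csnk1d and Csnk1e, which mark PER proteins for decay, had an SD of only 0.0944 and 0.115, and the ubiquitin ligase subunit Btrc of 0.0903.

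Differences between groups were then tested by quasi-likelihood in edgeR with Benjamini-Hochberg adjustment over all 15684 genes, with calls at an adjusted p under 0.1. No clock gene passed in any of the 7 planned comparisons, which are each day against the controls of its age, the control ages against each other and the difference of the response between the ages on each day. At 1 month 0 of 10 genes passed at day 2, beside 0.0191% of all genes, and 0 of 10 at day 6, beside 0.0%. At 6 months 0 of 10 passed at day 2, beside 0.319%, and 0 of 10 at day 6, beside 0.249%. Between the control ages 0 of 10 passed, beside 2.67%, and in the differences between the ages 0 of 10 passed on day 2, beside 0.00638%, and 0 of 10 on day 6, beside 0.0128%.

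DESeq2 called 0 of the 10 genes in these comparisons too, and edgeR gave an unadjusted p under 0.05 for Nr1d1 at day 6 at 1 month (1 of 10 genes, beside 2.72% of all genes) and for 0 of 10 genes in the other 6. The share of all genes under that value was 7.16% at day 2 at 1 month, 4.01% and 2.99% at days 2 and 6 at 6 months, 12.6% between the control ages and 4.46% and 1.91% in the differences between the ages on days 2 and 6. The spread between pools sets the size of what could be seen. The standard error of the log2 fold change at day 2 of the 1-month-old mice was 0.383 for Cry2, 0.415 for Cry1, 1.53 for Arntl and 1.75 for Npas2. Arntl had a log2 fold change of -0.37 in that comparison and of 0.15 (standard error 1.54) at day 6, so a change of several fold was not detectable with these pools.

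Nr1d1 came nearest to a difference after DEN. Its mean was 70.2 ± 1.06 CPM (SD, n = 2) in the 1-month controls and it was 31.7 ± 9.74 CPM (SD, n = 3) on day 6. The log2 fold change was -1.15 (standard error 0.410), with an unadjusted p of 0.0143 and an adjusted p of 1.0 from edgeR. The libraries of both groups did not overlap (1 of 10 genes, beside 14.4% of all genes tested). With no filter on low counts its adjusted p from edgeR was 0.0507, which is past the threshold, as for 0.174% of the 28129 genes then tested. The log2 fold change of Nr1d1 was also below 0 at day 2 at 1 month (-0.59, standard error 0.411) and at days 2 and 6 at 6 months (-0.58 and -0.42), and these comparisons share their controls in pairs.

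Cry1 had a mean of 12.96 ± 2.54 CPM (SD, n = 2) in the 1-month controls and reached 22.2 ± 8.47 CPM (SD, n = 3) by day 6. Its log2 fold change was 0.77 (standard error 0.420, edgeR unadjusted p = 0.0871, adjusted p = 1.0). Per2 did not overlap between controls and day 2 at 6 months (1 of 10 genes, beside 21.9% of all genes), at a log2 fold change of 0.95 (standard error 0.829, edgeR adjusted p = 1.0). At day 2 at 1 month and day 6 at 6 months 0 of 10 genes had groups that did not overlap, beside 16.7% and 19.5% of all genes. The 22 other clock genes tested gave 0 calls in the 7 planned comparisons.

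**Figure D5:**
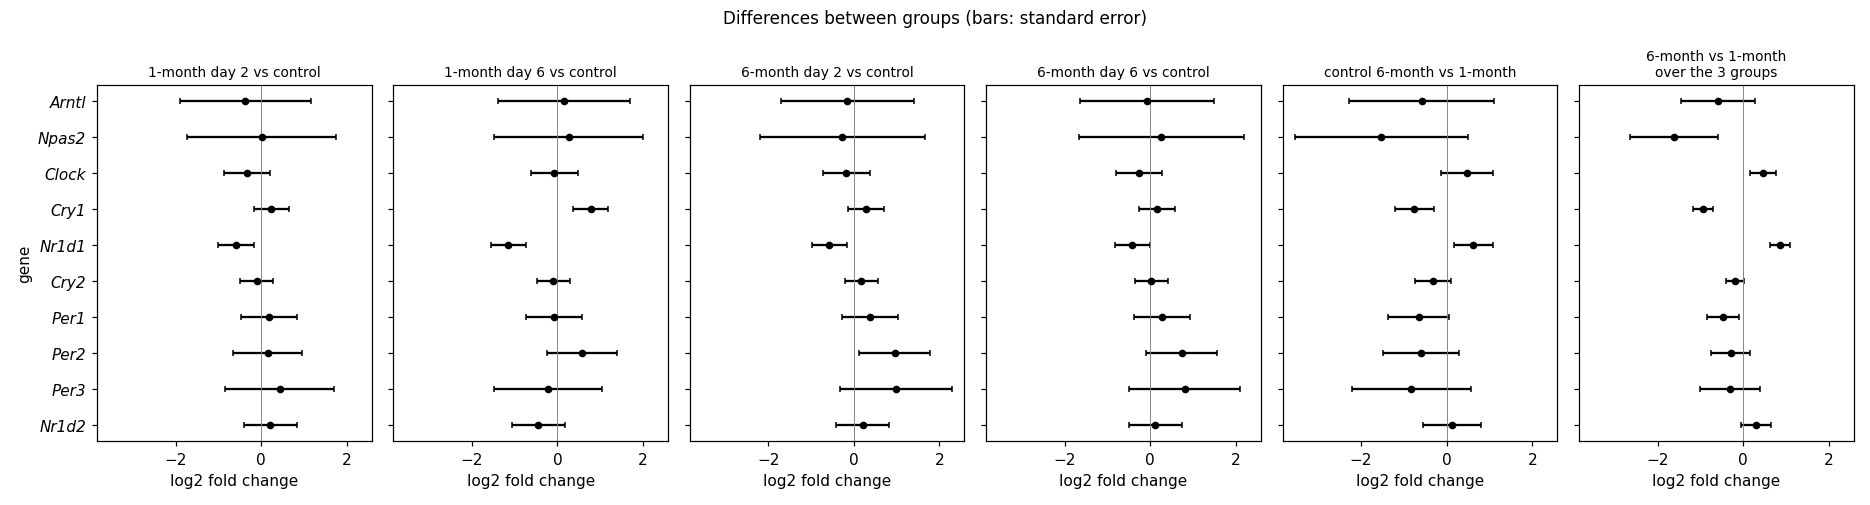
Log2 fold change of each gene (points) with its standard error (bars) from edgeR in each comparison with controls, between the control ages and between the ages over their 3 groups. The bars of Arntl, Npas2 and Per3 are the widest, and Cry1 and Nr1d1 lie away from 0 on opposite sides in the comparison of the ages over the 3 groups, at -0.95 and 0.87.

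Between the control ages, the libraries of 3 of the 10 genes (Cry1, Nr1d1 and Per1) did not overlap, beside 43.1% of all genes. After these values were seen, 1 comparison was added to the 7 planned, of the mean of the 3 groups at 6 months with that of the 3 groups at 1 month. It called 2 of the 10 genes, beside 22.6% of all genes tested (12.1% higher and 10.5% lower at 6 months), so the share of clock genes is near that of all genes.

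The 2 genes were Cry1 and Nr1d1. Cry1 was 10.2 to 30.4 CPM (median 14.1) in the 8 libraries at 1 month and 6.47 to 13.7 CPM (median 8.16) in the 8 at 6 months. Its log2 fold change was -0.95 (standard error 0.234, edgeR adjusted p = 0.0140), and its libraries overlapped between the ages at day 2 but not in the controls or at day 6. Nr1d1 was 21.3 to 71.0 CPM (median 40.4) at 1 month and 39.1 to 128 CPM (median 90.8) at 6 months. Its log2 fold change was 0.87 (standard error 0.233, edgeR adjusted p = 0.0208). The libraries of Nr1d1 overlapped between the ages at day 2 and at day 6, but not in the controls. The share of all genes without overlap between the ages is given for the controls only.

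In all 22 alternatives run the log2 fold change kept its sign, at -1.08 to -0.71 for Cry1 and 0.77 to 1.00 for Nr1d1. Of these alternatives, 1 fits only the groups compared, which here are all 6, and so repeats the main fit. Where more than 1 pool was left in every group, the adjusted p from edgeR or DESeq2 stayed under 0.1. It was 1.15e-05 to 0.0276 for Cry1 and 2.10e-05 to 0.0453 for Nr1d1. Without the 3 libraries of lowest mitochondrial share, which are all from 1-month-old mice, 5 of the 10 genes were called, beside 18.9% of the 16058 genes then tested, with Per1 lower and Clock and Arntl higher at 6 months beside Cry1 and Nr1d1. The direction of Arntl turned with that choice, from a log2 fold change of -0.59 over all libraries to 2.45. The libraries left out are the 1-month pools with the most Arntl, and in their groups also those with the most Clock and the least Per1. Leaving them out moves these genes in the direction called, so the calls of Arntl, Clock and Per1 cannot be read apart from that choice. Since the hour of collection is not known here, age and time of day cannot be told apart in this comparison. Some marker sums differed between the ages as well. Summed lymphocyte markers were 1.92 to 3.26 CPM at 1 month and 3.80 to 9.27 CPM at 6 months, without overlap. Those of hepatocytes were 24200 to 34438 CPM and 18827 to 28641 CPM, and those of endothelium 123 to 207 CPM and 93.0 to 141 CPM. Both of these overlapped between the ages, as did the sums of the remaining lists. The part of cell makeup in the values of Cry1 and Nr1d1 was not tested. Of the 22 other clock genes, 3 were called in the comparison, 2 higher and 1 lower at 6 months, beside 22.6% of all genes tested. They were Bhlhe41 (edgeR adjusted p = 0.00738), Csnk1d (0.0557) and Arntl2 (0.0988), the last at a median of 1.00 CPM.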

How the data were processed

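Liver RNA of 16 pools was prepared by the authors with a TruSeq kit, sequenced on a NextSeq and mapped with TopHat2 2.0.13 to GRCm38 with annotation of Ensembl release 84. Cutadapt, Cufflinks 2.2.1 and Cuffnorm are further tools in the processing notes of the submitters. Gene-level raw counts were deposited, and neither labels nor methods state which program counted them or whether it used strand. The deposited table also holds 16 columns of normalized counts and the authors' own fold changes and p-values from DESeq2 1.10.1, none of which were used. It lists 47729 genes, of which 10 had no counts and were left out.

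Library sizes were scaled by TMM, and filterByExpr with the 6 groups kept 15684 genes. Groups were compared in 1 model with edgeR 4.0.16 (glmQLFit and glmQLFTest, limma 3.58.1, R 4.3.3), with a prior count of 0.125 for fold changes, and standard errors are the fold change over the root of F. Log2 CPM has a prior count of 2. RPKM used exon lengths of GENCODE M21. Both tests were also run on simulated data, whose outcome is not given here and is not used for the clock genes. DESeq2 1.42.0, RLE scaling, no filter, the replicate block and leaving out libraries were alternatives. Pairs and plots used numpy 2.4.6, pandas 2.3.3 and matplotlib 3.10.9 under Python 3.11.15.

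The genes, the list of other clock genes and the marker lists were chosen with earlier results of these data known. Named were all 10 genes, the 5 genes of highest and of lowest r with Arntl and the 5 of highest r with Per2 among genes with an official symbol, other clock genes that passed a test, at most 6 of those among the 5% of largest spread, Dbp and Nfil3 in any case, and Thra for its overlap with Nr1d1. Csnk1e, Btrc, Camta1 and D930015M05Rik (the last pair for their overlaps) were named after their values were seen. Total counts of 19039330 to 34459774 bound the counting error, and the count floor was 3. No 2 replicates agreed within sampling noise, as the lowest chi-square per degree of freedom between replicates was 28.1.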

Additional observations from a re-analysis of the deposited data

How the results depend on the processing

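Each count over the 10 genes was taken again under each alternative, and 6 of these values moved by over 1.5 times, while 215 did not. With no filter on low counts, 1 gene was called at day 6 at 1 month (Nr1d1, log2 fold change -1.145, edgeR adjusted p = 0.0507) and 0 in the other planned comparisons. The pairs that passed fell from 29 to 0 in the 1-month libraries alone, to 0 in the 6-month libraries alone and to 0 without the 3 libraries of lowest mitochondrial share, an alternative chosen after seeing the data, and each of these leaves fewer arrangements. Without those 3 libraries, the genes among the most variable fell from 6 to 3 and the calls between the ages over the 3 groups rose from 2 to 5, while the share over all genes went from 22.6% to 18.9%, and Arntl turned from -0.59 to 2.45 on the log2 scale. Leaving out each library in turn gave 26 to 29 pairs, 5 to 6 genes among the most variable, 0 calls in each planned comparison and 2 in the added one. The genes among the most variable were 4 with a prior count of 0.5 and 4 in the 6-month libraries alone. No log2 fold change that had passed changed sign.

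Over all genes tested, deviations from the group means correlated at over 0.1 in 16 of 36 same-numbered pairs of libraries. The r of the 36 pairs was -0.302 to 0.588, so the replicate numbers did not pair the samples throughout. For the clock genes the numbers were not neutral, as replicate 1 had the most Per1 and the least Npas2 in every group. What the numbers stand for is not stated in the labels. With the replicate number as a block, 0 genes were called in the 7 planned comparisons, 2 in the added one, and 20 pairs passed. The log2 fold change of Arntl between the control ages, not called either way, went from -0.59 to 0.74 with the block. Groups of 2 or 3 pools and counts of 0 to 4 for Npas2 in the lowest libraries limit the size of difference that was detectable.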
